A study of Mus musculus with 9 samples.

Results

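Ovaries of mice with knockout of both liver X receptor genes and a transgene were compared with wild-type ovaries by RNA sequencing. The members are all protein-coding genes with at least 0.5 RPKM (reads per kilobase of exon and per library size, the deposited unit) in at least 3 of the 6 libraries compared. They number 12901 of 54838 genes in the table, and of 21998 protein-coding genes. At the edge of the rule, 607 protein-coding genes reached that level in exactly 3 of the 6 libraries and are members, and 226 reached it in 2 and are not. A gene can be a member through 1 group alone, and being a member is then no support for a difference. A gene list below is counted over those of its genes that are members. The wild-type group (WT, 3 libraries) carries both receptor genes. The second group (DKO_TG, 3 libraries) is labelled DKO LXR TG-AMH-LXRb: double knockout of the liver X receptors with a transgene that bears the names of AMH and LXRb. Another group (DKO, 3 libraries) is the same double knockout without that transgene, and its values are given beside the others where they help. All 9 ovary samples are from adult mice and were taken 40 h after pregnant mare serum gonadotropin (PMSG), a hormone that drives follicles to grow. The labels do not give the strain, the promoter sequence of the transgene, the cells that express it, or whether each library is a separate mouse, so the p-values below reflect spread between libraries that may be technical.

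Liver X receptors are transcription factors of the nuclear receptor family that oxysterols, oxidised forms of cholesterol, switch on. LXRa is encoded by Nr1h3 and LXRb by Nr1h2, and both bind DNA with a retinoid X receptor as partner. When cells hold surplus cholesterol they raise genes of cholesterol export such as Abca1 and Abcg1, and genes of fatty acid synthesis through Srebf1. In the ovary, cholesterol is the substrate of progesterone, androgens and estradiol, which theca and granulosa cells of the follicle make in turn. Amh, whose name the transgene bears, is made by granulosa cells of growing follicles. The design asks how the stimulated ovary differs from WT when both receptor genes are knocked out and the transgene is present.

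Both receptor genes were lower in DKO_TG than in WT. Nr1h3 (chromosome 2, mm10) was at 5.47, 4.12 and 4.45 RPKM in WT and 0.538, 0.824 and 0.647 in DKO_TG, and the groups did not overlap. Nr1h2 (chromosome 7) was at 22.5, 18.7 and 15.2 RPKM in WT and 5.14, 5.96 and 5.90 in DKO_TG. In limma the log2 changes were -2.15 ± 0.17 and -1.63 ± 0.16 (SE, adjusted p = 2.32e-05 and 6.62e-05). In DKO, without the transgene, Nr1h2 was at 7.79, 6.02 and 5.79 RPKM and Amh at 14.1, 6.97 and 13.5. Transcripts of the transgene need not be counted under Nr1h2, and the sequence of the transgene is not given, so its expression was not checked by these values. Amh was at 13.3, 22.0 and 15.3 RPKM in WT and 10.3, 10.3 and 8.79 in DKO_TG, a log2 change of -0.73 ± 0.27 (SE, adjusted p = 0.0464 in limma). That call was lost without any 1 DKO_TG library or WT replicate 2 or 3, and with TPM, quantile normalization, the plain total of reads, no filter and the length and GC correction. Nr1h3 shares exon sequence with an annotated neighbour and is uncertain.

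Library facts that touch every value below concern WT. Recovered reads were between 40.1 and 57.7 M in these 6 libraries. Malat1, a long RNA retained in the nucleus, was at 1.67, 9.36 and 11.1 RPKM in WT and 246, 258 and 279 in DKO_TG. Neat1, another, was at 0.226, 0.757 and 0.749 and 49.3, 67.2 and 58.6. Reads in pseudogenes were 20.7% to 23.3% in WT and 16.0% to 16.1% in DKO_TG, and reads in the members 75.8% to 78.1% and 81.7% to 82.1%. These differences coincide with the WT genotype, so their part in any difference from WT cannot be told apart from it. Over protein-coding genes, log2 values correlated at 0.982 to 0.993 among WT, 0.987 to 0.994 among DKO_TG and 0.929 to 0.947 between the groups, a description across genes of 3, 3 and 9 pairs of libraries. The first principal component of the 6 libraries (80.0% of the variance) set WT apart from DKO_TG, and on the second WT replicate 1 stood away from the rest. In bulk tissue, fewer cells of a type and less RNA per cell cannot be told apart.

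Many measured genes differed in level between the groups, most by less than a doubling. The test was limma on log2(RPKM + 0.5), and a gene was called when its adjusted p was under 0.05, with p-values adjusted over all 18889 genes tested. Of the 12901 members, 3862 were called higher in DKO_TG (29.9%) and 2604 lower (20.2%), 50.1% in all. Over all tested genes the share called was 51.4%. A log2 change of at least 1 was reached by 977 of the higher (7.57% of members) and 214 of the lower (1.66%). The libraries of both groups did not overlap for 65.9% of members. The median log2 change of the members was 0.06, and the span from its lower to its upper decile was -0.59 to 0.88.

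How the members split into higher and lower depended on how libraries were scaled. With the deposited values 59.7% of calls were higher. The share was 49.4% with TMM, 47.5% with the median ratio of protein-coding genes, 48.7% with quantile normalization and 49.9% with limma-voom on recovered reads. With the plain total of reads it was 82.1% and with TPM 94.8%, and those scalings moved the median log2 change of the members from 0.06 to 0.29 and 0.51. Log2 changes are printed on the deposited scale without subtracting its median. TPM moved changes against WT upward, so small falls, and not rises, can turn their sign with it. The median of the proteasome list, for example, moved from -0.47 to 0.06 with TPM. Of the members called in the deposited scale, 0 were called the opposite way with TMM and 10 with TPM. Of the 44 gene lists described below, 28 had more lower than higher members. With TPM, 18 of those 28 had more higher than lower members, 6 had equal numbers and 4 still had more lower ones (cytosolic ribosomal proteins, respiratory chain, collagen and matrix, and ovarian surface epithelium).

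Highly expressed genes were more often lower than higher in DKO_TG, and weakly expressed genes more often higher. Split into 5 bins of equal size by mean RPKM, the highest bin (above 16.6) had 45.9% lower and 8.6% higher members. The lowest bin (up to 1.89) had 6.4% lower and 38.9% higher. Longer transcripts leaned the same way as weakly expressed ones: 41.2% of the bin with the longest summed exons were higher, against 17.4% of the shortest. Exons poor in GC did so too, with 47.2% higher in the bin of lowest GC content and 23.4% in the bin of highest. Level, length and GC content are linked between genes and were not separated here. The plot of calls by bins shows all 3 gradients. Among the 10 members with the highest level were Hsd3b1, Eef1a1, Cyp11a1, Rplp1, Inha, Ubb, Rps3a1, Gm11808 and Rpl10-ps3, and the 10 took 3.98% to 4.37% of reads in WT and 3.52% to 3.73% in DKO_TG. Hsd3b1, which makes progesterone from pregnenolone, was at 5517, 4343 and 4492 RPKM in WT and 3951, 4739 and 4339 in DKO_TG, so its groups overlapped (log2 change -0.14 ± 0.23 SE, adjusted p = 0.645 in limma). Eef1a1, the translation elongation factor, was at 4395, 3635 and 3664 RPKM in WT and 2021, 1967 and 2030.4 in DKO_TG, with every DKO_TG library below every WT library (log2 change -0.95 ± 0.19, adjusted p = 0.00295 in limma). Rplp1 (-0.80), Ubb (-0.47), Rps3a1 (-0.80), Gm11808 (-0.95) and Rpl10-ps3 (-0.91) were called lower too, with these log2 changes. Inha, the inhibin alpha subunit of granulosa cells, was not called (-0.29 ± 0.25, adjusted p = 0.352 in limma). Rplp1 was not called without any 1 DKO_TG library or WT replicate 1 or 2, nor Ubb without any 1 WT or DKO_TG library or DKO replicate 3. Rplp1 and Ubb were not called with TPM and the plain total of reads, nor Rplp1, Ubb, Rps3a1, Gm11808 or Rpl10-ps3 with quantile normalization. Eef1a1, Rplp1, Ubb and Rps3a1 were not called with no filter, nor Rplp1 or Ubb with the length and GC correction. Ubb was not called with protein-coding genes alone. With quantile normalization the direction of Rplp1, Rps3a1 and Ubb turned, and with TPM that of Ubb and Hsd3b1. Reads of Eef1a1, Ubb, the ribosomal genes and Gm11808 can be shared with near-identical copies, so these are uncertain, and Cyp11a1 overlaps an annotated gene.

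**Figure D1:**
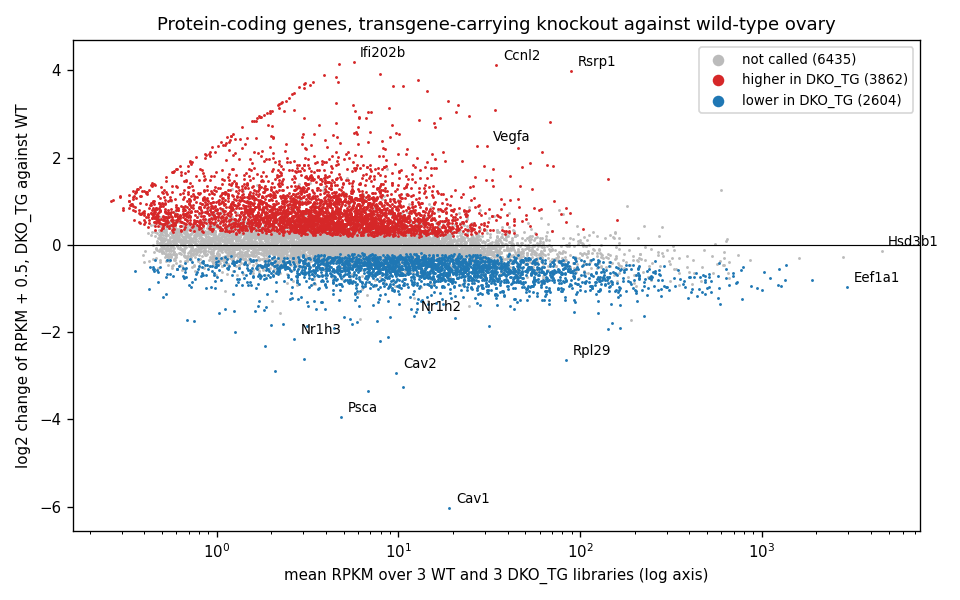
Log2 change in DKO_TG against WT (vertical) by mean RPKM over the 6 libraries (horizontal, log axis) for the 12901 members, each a dot. The 3862 higher and 2604 lower members form a cloud mostly within 1 log2 unit that tilts down at high level, and Cav1 lies apart at -6.04.

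**Figure D2:**
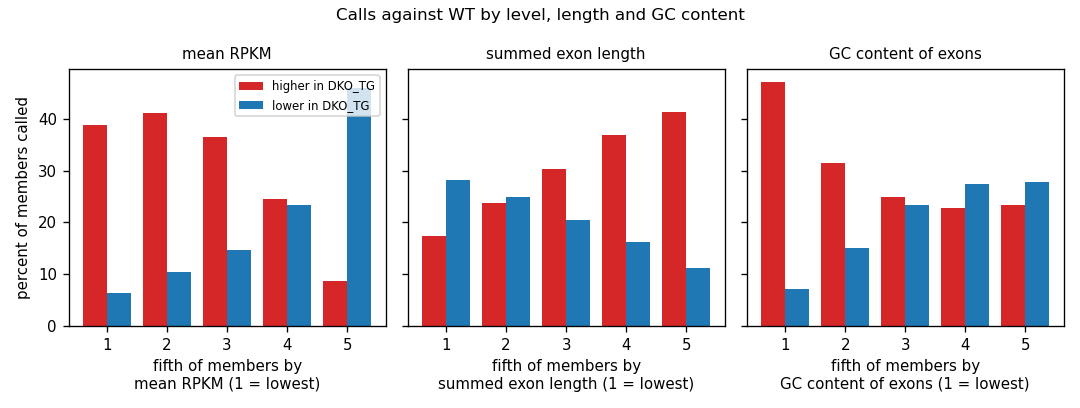
Percent of members called higher (red) or lower (blue) in DKO_TG against WT in each of 5 bins of the members by mean RPKM, by summed exon length and by GC content. The share lower climbs from 6.4% to 45.9% from the lowest to the highest level, and the share higher climbs from 17.4% to 41.2% from the shortest to the longest exons.

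The largest fall of any member was in Cav1, the main coat protein of caveolae, small pits of the plasma membrane rich in cholesterol. Cav1 was at 34.1, 38.04 and 42.2 RPKM in WT libraries, at 39.8, 36.1 and 36.0 in DKO, and at 0.125, 0.0490 and 0.0874 in DKO_TG. The DKO_TG mean was 437 times below that of WT, from 18261 recovered reads in the WT libraries and 43 in the DKO_TG libraries. In limma the log2 change was -6.04 ± 0.10 against WT (SE, adjusted p = 1.53e-08) and -6.01 ± 0.10 against DKO (adjusted p = 1.59e-08). The libraries without the transgene were all near the same level, with or without the receptors, and the 3 with it were all low. Cav2, the partner of Cav1 in the same coat, was at 17.5, 16.1 and 19.2 RPKM in WT libraries, at 12.8, 11.4 and 10.1 in DKO, and at 1.83, 1.89 and 1.91 in DKO_TG, a log2 change of -2.93 ± 0.10 against WT (adjusted p = 2.54e-07) and -2.32 ± 0.10 against DKO (adjusted p = 4.03e-05 in limma). Both genes lie side by side on the plus strand of chromosome 6 in mm10, Cav2 at 17281185 to 17289115 and Cav1 at 17306335 to 17341452.

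Genes on both sides of the pair were chosen after the values of Cav1 were seen, and the protein-coding ones changed far less. Tes, 241 kb before the start of Cav1, was at 3.38, 4.49 and 5.93 RPKM in WT and 2.97, 4.09 and 3.21 in DKO_TG and was not called (log2 change -0.36 ± 0.19, adjusted p = 0.139 in limma). Capza2, which encodes an actin capping subunit and starts 329.9 kb after it, was at 27.2, 23.3 and 26.1 RPKM in WT and 19.5, 20.2 and 18.8 in DKO_TG (-0.38 ± 0.10, adjusted p = 0.0145 in limma). St7, 387 kb after it, was not called (0.14 ± 0.12, adjusted p = 0.34 in limma). Met, the receptor of hepatocyte growth factor, lies between Cav1 and Capza2 at low levels of 0.472, 0.527 and 0.679 RPKM in WT and 0.432, 0.248 and 0.173 in DKO_TG (-0.44 ± 0.15, adjusted p = 0.0355 in limma). It is no member because too few of these 6 libraries reached 0.5 RPKM. The non-coding genes Gm4876 and D830026I12Rik, also before Cav1, were lower than in DKO (-1.05 ± 0.14 and -1.06 ± 0.12, adjusted p = 0.0143 and 0.00702 in limma) and not called against WT (-0.38 ± 0.14 and -0.09 ± 0.12, adjusted p = 0.0508 and 0.548 in limma). Both were under 1 RPKM in every library. Gm4876 was at 0.157, 0.351 and 0.278 RPKM in WT libraries, at 0.754, 0.650 and 0.725 in DKO, and at 0.0670, 0.150 and 0.0394 in DKO_TG. D830026I12Rik was at 0.0724, 0.0318 and 0.0686 RPKM in WT libraries, at 0.611, 0.555 and 0.608 in DKO, and at 0, 0.0342 and 0.0380 in DKO_TG. At such levels log2 changes of RPKM + 0.5 understate the change. Within 5 Mb on each side of Cav1, leaving out Cav2, 4 of 16 other members were higher and 1 lower (Capza2), 31.2% called beside 50.1% of all members. The other proteins of caveolae, also chosen after values were seen, changed less than Cav1 and Cav2. Their log2 changes were -0.23 ± 0.11 for Cavin1 (adjusted p = 0.106), -0.05 ± 0.11 for Cavin2 (0.699), -0.77 ± 0.17 for Cavin3 (0.00559) and -0.71 ± 0.13 for Ehd2 (0.00202 in limma). Cavin3 and Ehd2 were called lower. Capza2, Cavin3 and Ehd2 were not called with TPM, nor Capza2 with quantile normalization and the plain total of reads. Capza2 was not called without DKO_TG replicate 3. Tes, St7 and Cavin3 overlap annotated genes and are uncertain.

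**Figure D3:**
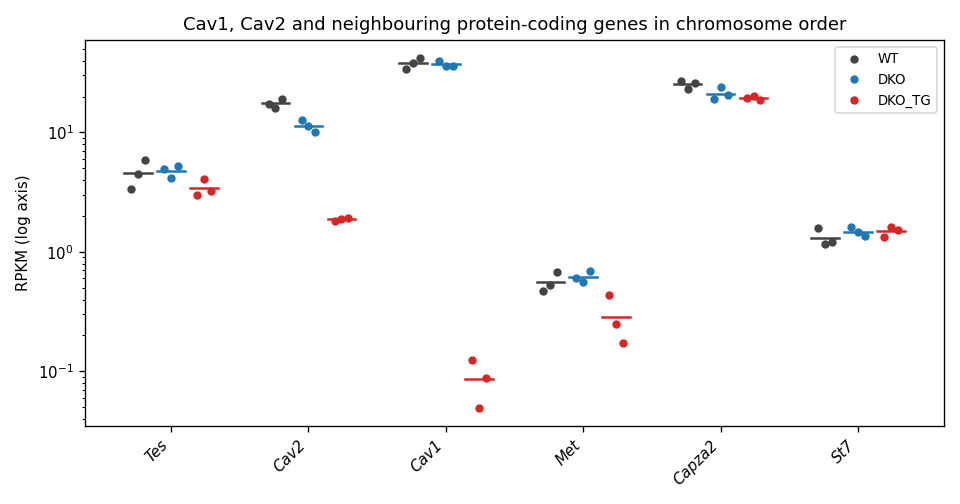
RPKM on a log axis of Cav1, Cav2 and 4 neighbouring protein-coding genes in chromosome order, with 1 dot per library, a bar at each group mean and colour for WT, DKO and DKO_TG. Cav1 drops from 34.1 to 42.2 RPKM in WT to at most 0.125 in DKO_TG, Cav2 falls to 1.83 to 1.91, and the neighbours differ far less.

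The other large falls were in genes of varied roles. Psca, a surface protein with a lipid anchor, was at 6.14, 18.8 and 3.995 RPKM in WT libraries, at 0, 0.0189 and 0 in DKO, and at 0.0953, 0.0280 and 0 in DKO_TG, with 5 reads in all DKO_TG libraries, too few for a fold change to be given. Sstr1, a somatostatin receptor, was at 1.11, 5.47 and 5.93 RPKM in WT libraries, at 0.00955, 0.0318 and 0.0149 in DKO, and at 0.01002, 0.0589 and 0.0294 in DKO_TG (9 reads in all DKO_TG libraries). These WT values spread several-fold between libraries, and both knockout groups were near 0. Psca and Sstr1 are members through their WT libraries alone, as are Cav1 above and Myoc below. Nefh, the heavy neurofilament subunit, was at 28.4, 6.06 and 4.81 RPKM in WT libraries, at 0.636, 1.07 and 1.09 in DKO, and at 0.457, 0.760 and 0.302 in DKO_TG (log2 change -3.34 ± 0.55 SE, adjusted p = 0.00123 in limma). Atp12a, a proton and potassium pump, was at 7.39, 31.0 and 20.9 RPKM in WT libraries, at 1.08, 0.600 and 0.118 in DKO, and at 0.791, 1.58 and 1.83 in DKO_TG (-3.24 ± 0.52, adjusted p = 0.00104 in limma). In both, WT replicate 1 stood away from the other WT libraries, above them for Nefh and below them for Atp12a. Rpl29, a protein of the large ribosomal subunit, was at 149, 148 and 137 RPKM in WT libraries, at 20.996, 27.4 and 22.3 in DKO, and at 23.3, 22.7 and 22.8 in DKO_TG, with almost no spread within groups (-2.63 ± 0.11, adjusted p = 5.45e-07 in limma). Dapl1 (-2.61 ± 0.39), Myoc (-2.31 ± 0.29) and Cpxm2 (-2.19 ± 0.71) were lower as well, with adjusted p of 0.000696, 0.000312 and 0.0299 in limma. Myoc was at 1.69, 4.30 and 4.35 RPKM in WT libraries, at 1.22, 1.48 and 0.855 in DKO, and at 0.198, 0.221 and 0.329 in DKO_TG, so DKO lay between the other groups. Cpxm2 was not called without any 1 DKO_TG library or WT replicate 2 or 3, where WT was at 2.55, 18.6 and 20.6 RPKM. Cpxm2 was not called with TPM and no filter. Rpl29 has near-identical copies, and Atp12a, Myoc and Cpxm2 overlap annotated genes, so these are uncertain.

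The 10 largest rises were between 3.60 and 4.18 on the log2 scale, in genes of varied roles. Ccnl2, a cyclin that binds splicing kinases, was at 3.29, 3.23 and 3.396 RPKM in WT libraries, at 75.7, 64.2 and 52.6 in DKO, and at 64.8, 64.4 and 68.2 in DKO_TG (log2 change against WT 4.12 ± 0.12 SE, adjusted p = 1.11e-07 in limma). Rsrp1, an arginine and serine rich protein, was at 6.45, 13.2 and 11.7 RPKM in WT libraries, at 207, 193 and 176 in DKO, and at 156, 175 and 172 in DKO_TG (3.997 ± 0.22, adjusted p = 3.17e-06). Pnisr, another such protein, was at 1.13, 1.38 and 1.41 RPKM in WT and 24.1, 24.3 and 24.7 in DKO_TG (3.79 ± 0.11, adjusted p = 1.08e-07 in limma). Pabpn1, which binds poly(A) tails in the nucleus, was at 0.539, 0.575 and 0.498 RPKM in WT and 14.2, 14.3 and 17.6 in DKO_TG (3.93 ± 0.14, adjusted p = 2.54e-07 in limma). In each of these genes every WT library lay far below every library of the other groups. Ifi202b, an interferon-inducible protein that senses DNA, was at 0.0257, 0.145 and 0.134 RPKM in WT libraries, at 11.97, 10.8 and 7.77 in DKO, and at 7.23, 17.9 and 8.54 in DKO_TG (4.18 ± 0.30, adjusted p = 1.31e-05 in limma). Rgs11, a brake on G protein signalling, was at 0.109, 0.159 and 0.167 RPKM in WT libraries, at 24.4, 19.6 and 22.6 in DKO, and at 8.91, 8.05 and 9.68 in DKO_TG, so that it was 3.86 above WT and -1.27 against DKO on the log2 scale (adjusted p = 7.71e-08 and 0.00163 in limma). Ints6l rose by 3.65 ± 0.21, Spaca6, a sperm surface protein, by 3.73 ± 0.20, and Snhg11, a host gene of small nucleolar RNAs annotated as protein coding, by 3.60 ± 0.11 (adjusted p = 3.54e-06, 2.15e-06 and 1.12e-07 in limma). Prpsap2, an associate of the enzyme that makes phosphoribosyl pyrophosphate, was at 9.40, 0.0798 and 0.0739 RPKM in WT libraries, at 18.3, 18.2 and 16.6 in DKO, and at 17.2, 18.7 and 18.5 in DKO_TG: WT replicate 1 was near the knockout level and the other two WT libraries were near 0. Its log2 change was 3.65 ± 0.93 (adjusted p = 0.0104 in limma). Ifi202b belongs to a family of close copies, and Pabpn1, Rgs11, Spaca6 and Snhg11 overlap annotated genes, so these are uncertain. Ifi202b and Rgs11 are members through their DKO_TG libraries alone. The plot of leading genes shows each library.

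**Figure D4:**
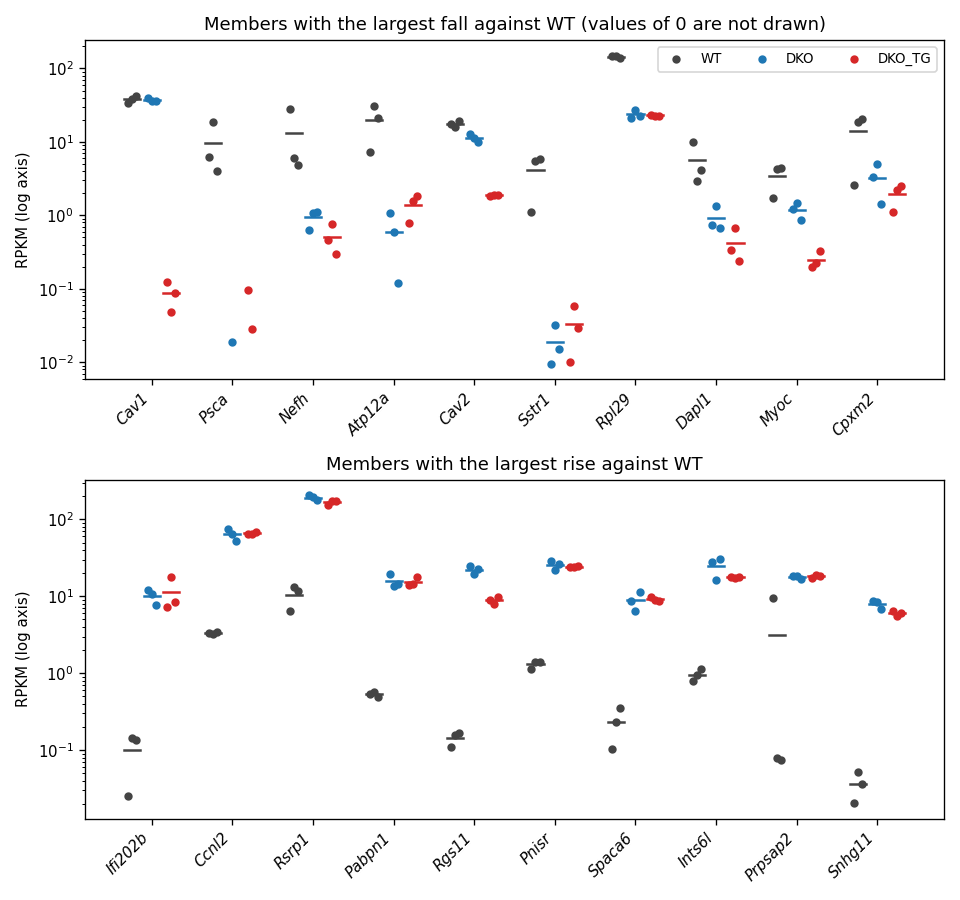
RPKM (log axis) of the 10 members with the largest fall (top) and the 10 with the largest rise (bottom) against WT, 1 dot per library with a bar at the group mean; libraries at 0 are not drawn, and a group with a library at 0 has no bar. In the top row the DKO libraries of Cav1 lie among those of WT and those of Cav2 between WT and DKO_TG, and in the bottom row DKO lies near DKO_TG for each gene but Rgs11, where it is higher.

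Splicing factors rose together: of 23 in the list, 18 rose and 0 fell, with a median log2 change of 1.18 beside 0.06 for all members. The background was 29.9% of members called higher. Their summed level was 558 to 582 RPKM in WT, 1044 to 1145 in DKO and 1105 to 1129 in DKO_TG. Against DKO, 0 of the 23 were called. Clk4, a kinase of splicing factors, was at 1.11, 1.54 and 1.59 RPKM in WT and 17.6, 15.7 and 15.6 in DKO_TG (log2 change 3.14 ± 0.12 SE, adjusted p = 4.09e-07 in limma). Srsf1, a splicing activator, was at 39.6, 35.6 and 40.0 RPKM in WT and 60.7, 64.1 and 62.4 in DKO_TG (0.69 ± 0.09, adjusted p = 0.000364 in limma). The count moved by less than a factor of 1.5 with every scaling tried and without any 1 of the 9 libraries. Of 18 chromatin regulators 12 rose and 3 fell (median 0.57). Tet2, which oxidises methylated cytosine, was at 0.274, 0.629 and 0.671 RPKM in WT and 2.49, 2.51 and 2.51 in DKO_TG (1.57 ± 0.15, adjusted p = 6.29e-05). Ep300, a histone acetyltransferase, rose by 0.42 ± 0.14 (adjusted p = 0.0302 in limma). The 3 lower regulators became 0 with TPM and 1 with the plain total of reads. Ep300 was not called without any 1 DKO_TG library or WT replicate 1. Ep300 was not called with quantile normalization, no filter, TMM, voom and the median ratio. Clk4, Srsf1, Tet2 and Ep300 overlap annotated neighbours and are uncertain. Malat1 and Neat1 moved the same way as this list, as given above, and their part was not tested.

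On the deposited scale, more genes of protein synthesis, respiration and protein breakdown were lower than higher. Of 78 cytosolic ribosomal protein genes, 52 fell and 1 rose, with a median log2 change of -0.74. Their summed level was 29384 to 39513 RPKM in WT, 15254 to 24271 in DKO and 19153 to 19616 in DKO_TG, and Rpl29 above fell most. Of 81 nuclear-encoded subunits of the respiratory chain, 47 fell and 2 rose (median -0.58). Ndufa10, a subunit of complex I, was at 57.2, 43.5 and 44.7 RPKM in WT and 19.4, 22.4 and 19.8 in DKO_TG (-1.21 ± 0.14 SE, adjusted p = 0.000157 in limma). The 2 that rose were Ndufs1 and Atp5s, named after their values were seen. Of 74 mitochondrial ribosomal proteins, 34 fell and 2 rose (median -0.39, of the other sign with TPM at 0.12), with Mrps12 at 44.1, 37.6 and 29.3 RPKM in WT and 12.2, 18.1 and 16.2 in DKO_TG (-1.23 ± 0.19, adjusted p = 0.000805 in limma). Of 38 proteasome subunits, 24 fell (median -0.47, of the other sign with TPM at 0.06), among them Psmd1 at 39.8, 29.0 and 33.2 RPKM in WT and 18.8, 18.3 and 17.8 in DKO_TG (-0.86 ± 0.11, adjusted p = 0.000347 in limma), which overlaps a neighbour and is uncertain. The background was 20.2% of members called lower, and 45.9% of the bin with the highest level. Against DKO, 0 genes of any of these lists were called. The 52 ribosomal genes became 17 with quantile normalization and 26 with TPM, the 47 respiratory genes 20 with TPM and 23 with quantile normalization, the 34 mitochondrial ribosomal genes 2 with TPM, 11 with the plain total of reads, 14 without DKO_TG replicate 1, 16 without DKO_TG replicate 3, 18 without WT replicate 1 and 20 with the length and GC correction, and the 24 proteasome genes 3 with TPM, 8 with quantile normalization, 14 with the plain total of reads and 15 without DKO_TG replicate 1. With TPM the genes called higher were 2 cytosolic ribosomal, 10 respiratory, 18 mitochondrial ribosomal and 10 proteasome genes, so the balance turned for the last pair of lists. Cytosolic ribosomal proteins share reads with many processed pseudogenes and are uncertain, and all 37 genes named mt- are listed at 0, so mitochondrially encoded subunits were not compared.

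Cholesterol is made from acetyl-CoA through mevalonate and squalene, and its genes are driven together by SREBP2, the product of Srebf2, when sterols run low. In DKO_TG ovaries 11 of 25 genes of this pathway and of LDL uptake fell and 0 rose, with a median log2 change of -0.72. The share lower was 44%, beside 20.2% of all members and 45.9% of the bin with the highest level. The sum over the list was 1429 to 2670.1 RPKM in WT and 1053 to 1254 in DKO_TG, so the groups did not overlap. The 250 bases before the start of 4 of these genes are printed because the list moved largely together and factor NF-Y, known to act beside SREBP2, binds the box CCAAT. The bases are from RefSeq on GRCm38.p6, 5′ to 3′ on the strand of the gene, with CCAAT and its reverse complement ATTGG in capitals.
Srebf2, chr15:82147019-82147268, plus strand: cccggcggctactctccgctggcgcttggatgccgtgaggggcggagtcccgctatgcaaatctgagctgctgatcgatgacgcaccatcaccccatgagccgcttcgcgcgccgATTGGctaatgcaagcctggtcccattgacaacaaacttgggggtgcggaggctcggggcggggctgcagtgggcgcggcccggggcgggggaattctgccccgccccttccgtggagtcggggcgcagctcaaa
Mvk, chr5:114444019-114444268, plus strand: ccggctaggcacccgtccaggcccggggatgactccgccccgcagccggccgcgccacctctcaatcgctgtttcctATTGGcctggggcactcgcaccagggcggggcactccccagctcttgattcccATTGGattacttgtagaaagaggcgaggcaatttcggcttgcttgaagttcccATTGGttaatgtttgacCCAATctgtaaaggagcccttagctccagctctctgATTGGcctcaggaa
Cyp51, chr5:4104698-4104947, minus strand: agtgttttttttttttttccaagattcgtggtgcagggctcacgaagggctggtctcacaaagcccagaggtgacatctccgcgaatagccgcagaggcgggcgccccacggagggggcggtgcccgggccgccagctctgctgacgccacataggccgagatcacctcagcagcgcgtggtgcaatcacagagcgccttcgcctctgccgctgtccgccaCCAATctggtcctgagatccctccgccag
Ebp, chrX:8193513-8193762, minus strand: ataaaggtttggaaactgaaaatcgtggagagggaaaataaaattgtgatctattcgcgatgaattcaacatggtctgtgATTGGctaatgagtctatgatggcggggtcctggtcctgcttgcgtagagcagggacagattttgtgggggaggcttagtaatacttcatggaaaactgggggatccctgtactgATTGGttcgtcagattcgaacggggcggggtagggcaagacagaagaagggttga

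The box occurred on either strand in the 250 bases of 16 of the 18 list genes that had a RefSeq promoter, counting a gene once over its starts. It occurred in 6 of the 7 of those that fell, and among all 10076 members with a promoter in 40.7%. Of all 32851 promoter windows of this length 33.8% hold it. A match is a description of the letters and not a binding site.

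The regulator Srebf2 was at 52.2, 37.2 and 36.0 RPKM in WT libraries, at 22.7, 19.3 and 18.7 in DKO, and at 23.6, 27.3 and 23.7 in DKO_TG (log2 change against WT -0.72 ± 0.15 SE, adjusted p = 0.00404 in limma). Along the pathway, Mvk, the mevalonate kinase, was at 57.1, 30.6 and 26.9 RPKM in WT and 16.0, 16.1 and 16.9 in DKO_TG (-1.12 ± 0.24, adjusted p = 0.00512). Ebp, the sterol isomerase, was at 88.9, 45.1 and 48.8 RPKM in WT and 19.97, 24.1 and 21.3 in DKO_TG (-1.40 ± 0.23, adjusted p = 0.00127 in limma). In each, WT replicate 1 was above the other WT libraries, far above for Mvk and Ebp, and DKO_TG was below all WT libraries. Against DKO, 0 of the 25 genes were called higher and 0 lower, with a median of 0.34. The count of 11 became 4 with TPM, 6 with quantile normalization and 7 without DKO_TG replicate 1 or 3. With TPM 4 genes of the list were also called higher, so the list no longer leaned to 1 side. Srebf2 was not called with TPM.

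Genes known as LXR targets went both ways: of 15 members, 2 rose and 4 fell, with a median log2 change of -0.05. These are 13.3% and 26.7%, beside 29.9% and 20.2% of all members. Abca1, which exports cholesterol to apolipoprotein A1, was at 79.1, 32.2 and 39.5 RPKM in WT and 99.9, 90.1 and 91.3 in DKO_TG, a rise of 1.00 ± 0.29 (SE, adjusted p = 0.0176 in limma). Mertk, a receptor for the uptake of dead cells, was at 1.65, 1.74 and 1.94 RPKM in WT and 3.91, 3.24 and 3.28 in DKO_TG (0.80 ± 0.19, adjusted p = 0.00678 in limma). Every DKO_TG library was above every WT library for both. Apoe, an apolipoprotein, was at 253, 159 and 229.9 RPKM in WT and 91.3, 107 and 111 in DKO_TG (-1.03 ± 0.23, adjusted p = 0.00597). Pltp, which transfers phospholipids between lipoproteins, was at 6.51, 6.23 and 8.10 RPKM in WT and 3.84, 3.81 and 3.53 in DKO_TG (-0.81 ± 0.17, adjusted p = 0.00386 in limma). The other two that fell were Lpcat3 and Fasn. Abcg1 was at 2.37, 2.93 and 3.04 RPKM in WT and 2.37, 3.07 and 2.55 in DKO_TG (-0.05 ± 0.24, adjusted p = 0.867). Srebf1 was at 17.0, 16.0 and 13.5 RPKM in WT and 14.6, 17.8 and 17.0 in DKO_TG (0.09 ± 0.11, adjusted p = 0.527 in limma), and neither was called. Of 17 genes listed, Abcg5 and Abcg8 did not reach the level of a member. The 2 that rose became 1 without WT replicate 2 or 3 or DKO_TG replicate 1, 4 with the plain total of reads and array weights and 7 with TPM, and the 4 that fell 1 with quantile normalization and TPM and 2 without WT replicate 1 or DKO_TG replicate 1 or 3, and with the plain total of reads. The call of Abca1 was lost without WT replicate 2 or 3 or DKO_TG replicate 1. Pltp was not called with TPM, nor Apoe or Mertk with quantile normalization. Srebf1 and Pltp overlap annotated genes and are uncertain.

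Of 10 partners and corepressors of the receptors, 1 fell (10%) and 0 rose, beside 20.2% and 29.9% of all members. It was Rxra, a retinoid X receptor, at 12.9, 11.8 and 12.3 RPKM in WT and 8.48, 8.64 and 8.12 in DKO_TG (log2 change -0.53 ± 0.07 SE, adjusted p = 0.000494 in limma, not called with TPM). With TPM 5 of the 10 were higher. Of 4 oxysterol enzymes 2 rose and 1 fell, 50% and 25% of a short list. Cyp27a1, which hydroxylates cholesterol in mitochondria, was at 1.41, 1.39 and 1.73 RPKM in WT libraries, at 8.47, 5.57 and 7.69 in DKO, and at 5.41, 4.55 and 5.46 in DKO_TG (1.49 ± 0.15 against WT, adjusted p = 9.47e-05 in limma). All DKO_TG libraries were above all WT libraries. The 2 that rose became 1 with a filter at an RPKM of 1 and quantile normalization. The 1 that fell was Cyp7b1, which hydroxylates oxysterols (-0.44 ± 0.16, adjusted p = 0.0484 in limma), named after its values were seen. It was not called without WT replicate 1 or 3, DKO replicate 2 or DKO_TG replicate 1 or 3, nor with the replicate block, a pseudocount of 1, no filter, TPM and the plain total of reads.

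In fatty acid synthesis 2 of 15 genes fell and 1 rose (median log2 change -0.34, of the other sign with quantile normalization at 0.17 and TPM at 0.19). Mlxipl, which encodes the carbohydrate-responsive factor ChREBP, was at 0.386, 0.363 and 0.209 RPKM in WT and 2.43, 1.70 and 1.93 in DKO_TG (1.62 ± 0.20 SE, adjusted p = 0.000247 in limma). Elovl1, an elongase, was at 67.7, 44.2 and 45.3 RPKM in WT and 25.9, 28.3 and 25.9 in DKO_TG (-0.93 ± 0.17, adjusted p = 0.00222). Fasn, the fatty acid synthase, was at 55.5, 40.2 and 41.6 RPKM in WT and 34.1, 31.2 and 35.1 in DKO_TG (-0.43 ± 0.14, adjusted p = 0.0318 in limma). Acaca (-0.24 ± 0.14, adjusted p = 0.193) and Acly (-0.65 ± 0.24, adjusted p = 0.0508 in limma), which supply malonyl-CoA and acetyl-CoA, were not called. Among 15 genes of lipid droplets and cholesterol esters, 1 rose and 3 fell (median -0.24, of the other sign with TPM at 0.26 and the plain total of reads at 0.02). Pnpla2, the lipase that opens triglyceride breakdown, was at 25.1, 25.2 and 21.8 RPKM in WT and 13.4, 13.9 and 13.5 in DKO_TG (-0.80 ± 0.12, adjusted p = 0.000909). Mgll, the monoglyceride lipase, was at 19.2, 12.4 and 10.6 RPKM in WT and 6.25, 7.13 and 6.65 in DKO_TG (-0.98 ± 0.20, adjusted p = 0.00327). Plin2, a droplet coat protein, was at 32.6, 26.8 and 31.3 RPKM in WT and 20.9, 23.9 and 21.8 in DKO_TG (-0.43 ± 0.13, adjusted p = 0.02 in limma). Hilpda, an inhibitor of Pnpla2, rose by 0.49 ± 0.13 (adjusted p = 0.0136). Soat1, which esterifies cholesterol, was at 179.6, 127 and 132 RPKM in WT and 152, 167 and 164 in DKO_TG (0.16 ± 0.17, adjusted p = 0.452 in limma) and was not called. The share that fell was near or under the 20.2% background in both lists. Fasn was not called without any 1 DKO_TG library or WT replicate 1, nor Plin2 without WT replicate 1 or 3 or DKO_TG replicate 1 or 3. Hilpda was not called without DKO_TG replicate 2. Fasn, Plin2 and Pnpla2 were not called with TPM, nor Fasn or Plin2 with quantile normalization and the plain total of reads. Fasn was not called with no filter and the length and GC correction. With TPM the direction of Fasn and Plin2 turned. The 1 higher gene of fatty acid synthesis became 6 with TPM and 3 with quantile normalization and array weights. The 1 higher gene of droplets became 2 with TPM, quantile normalization and the plain total of reads. The 2 lower genes of fatty acid synthesis became 1 without any 1 DKO_TG library or WT replicate 1, and with no filter, quantile normalization, TPM, the plain total of reads and the length and GC correction, and the 3 of droplets 1 with TPM and 5 with TMM, the median ratio, voom and array weights. Mlxipl, Elovl1 and Mgll overlap annotated genes and are uncertain. Mlxipl is a member through its DKO_TG libraries alone.

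Lysosomes free cholesterol from LDL and pass it on through NPC1 and NPC2. Of 18 lysosomal genes 12 fell and 0 rose, with a median log2 change of -0.43, of the other sign with TPM at 0.09. The share lower was 66.7%, beside 20.2% of all members and 45.9% of the bin with the highest level. Cd63, a membrane protein of late endosomes, was at 78.2, 59.0 and 65.7 RPKM in WT and 32.5, 39.7 and 33.1 in DKO_TG (-0.93 ± 0.15 SE, adjusted p = 0.00106). Ctsb, a protease, was at 177, 149 and 152 RPKM in WT and 112, 109 and 104 in DKO_TG (-0.55 ± 0.12, adjusted p = 0.00516 in limma). Lipa, which hydrolyses cholesterol esters, was at 38.9, 27.6 and 37.5 RPKM in WT and 24.6, 25.2 and 23.9 in DKO_TG (-0.47 ± 0.16, adjusted p = 0.037). Npc1 was at 3.95, 3.77 and 4.36 RPKM in WT and 3.45, 2.90 and 2.80 in DKO_TG (-0.35 ± 0.11, adjusted p = 0.0227 in limma). Npc2 was not called (-0.37 ± 0.19, adjusted p = 0.132 in limma). The falls were small and the count of 12 depended on single libraries: it was 2 with TPM, 3 with the plain total of reads, 5 without DKO_TG replicate 1 or 3, and with quantile normalization, 6 without WT replicate 3 or DKO_TG replicate 2 and 7 without WT replicate 1. Npc1 was not called without WT replicate 3 or DKO_TG replicate 2 or 3, nor Lipa without any 1 DKO_TG library or WT replicate 1 or 3. Npc1, Lipa and Ctsb were not called with TPM, nor Lipa or Ctsb with quantile normalization. Npc1 and Lipa were not called with the plain total of reads, nor Lipa with no filter. With TPM the direction of Npc1 and Lipa turned, and with quantile normalization that of Ctsb. Of the list 3 genes were called higher with TPM, 2 with the plain total of reads and 1 with quantile normalization. Npc1 and Ctsb overlap annotated genes and are uncertain.

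Steroid synthesis was mostly not called: of 17 genes 0 rose and 3 fell, with a median log2 change of -0.22, of the other sign with quantile normalization at 0.25, TPM at 0.31 and the plain total of reads at 0.05. The 17.6% that fell was near the 20.2% of all members. Star, which carries cholesterol into mitochondria, was at 803, 421 and 403 RPKM in WT libraries, at 282, 200.2 and 101 in DKO, and at 286, 253 and 299 in DKO_TG (-0.88 ± 0.38 against WT, SE, adjusted p = 0.08 in limma). Cyp11a1, which makes pregnenolone, was at 3852, 2697 and 2663 RPKM in WT libraries, at 1688, 1593 and 978 in DKO, and at 2344, 2650.1 and 2511 in DKO_TG (-0.28 ± 0.27, adjusted p = 0.411 in limma). DKO_TG lay below WT for Star without passing the test, and for Cyp11a1 it was just below the lowest WT library while DKO was lower. Cyp19a1, the aromatase of granulosa cells, was at 12.7, 21.9 and 21.6 RPKM in WT and 32.5, 26.5 and 28.0 in DKO_TG (0.65 ± 0.42, adjusted p = 0.222 in limma). The 3 genes that fell were Tspo, a cholesterol-binding protein of the outer mitochondrial membrane (-1.03 ± 0.24, adjusted p = 0.00767), Hsd3b6 (-0.91 ± 0.19, 0.00451), and Por, which hands electrons to cytochromes P450 (-0.79 ± 0.21, 0.0121 in limma). The 3 that fell became 1 with TPM and 5 without DKO replicate 3, and with the 6 libraries alone and array weights. Called higher were 4 genes with TPM and 2 with quantile normalization and array weights. It was 1 with the plain total of reads and the 6 libraries alone, and without WT replicate 1. Hsd3b6 and Por were not called with TPM, nor Hsd3b6 with quantile normalization. Cyp11a1 and Tspo overlap annotated genes, and Hsd3b6 is a close copy of Hsd3b1, so these are uncertain.

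Few granulosa cell genes were called on the deposited scale: of 16, 0 rose and 2 fell (median log2 change 0.07). The share lower was 12.5%, beside 20.2% of all members, and 29.9% of all members were higher. Fshr, the receptor through which PMSG acts on these cells, was at 12.2, 12.5 and 16.6 RPKM in WT and 16.6, 16.1 and 17.1 in DKO_TG (0.28 ± 0.46 SE, adjusted p = 0.638 in limma). Foxl2, a factor that keeps granulosa identity, was at 37.1, 40.3 and 33.8 RPKM in WT and 23.4, 25.0 and 24.9 in DKO_TG (-0.59 ± 0.11, adjusted p = 0.00288 in limma), and Amh above was the other that fell. Of 16 genes of the LH surge and cumulus expansion, 8 reached the level of a member and 0 of these were called in limma, with 0 higher and 0 lower at an unadjusted p under 0.05. Lhcgr, the LH receptor, was at 68.9, 97.4 and 79.9 RPKM in WT and 122, 98.6 and 109 in DKO_TG (0.43 ± 0.26, adjusted p = 0.195), Tnfaip6 changed by 0.23 ± 0.25 (0.465) and the growth factor gene Ereg by 0.33 ± 0.28 (0.352 in limma). Of 8 luteal genes 1 rose, the cell cycle inhibitor Cdkn1b at 10.3, 22.9 and 20.004 RPKM in WT and 28.7, 28.1 and 31.1 in DKO_TG (0.78 ± 0.26, adjusted p = 0.0311 in limma). Ptgfr, the receptor for prostaglandin F2 alpha, ranged from 18.4 to 70.5 RPKM in WT and from 31.5 to 89.9 in DKO_TG, too wide a spread for a difference to show (0.21 ± 1.30, adjusted p = 0.905 in limma). The 2 granulosa genes became 0 with quantile normalization, TPM and the plain total of reads and 1 without any 1 DKO_TG library or WT replicate 2 or 3, and with no filter and the length and GC correction, and 6 granulosa genes were higher with TPM. In addition, 2 to 4 LH surge genes were higher with the plain total of reads, the 6 libraries alone or TPM. Cdkn1b was not called without any 1 DKO_TG library. Foxl2 was not called with TPM, quantile normalization and the plain total of reads, nor Cdkn1b with no filter, the length and GC correction, TMM, voom and the median ratio. Foxl2, Ereg and Ptgfr overlap annotated genes and are uncertain.

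Theca cells answer hedgehog signals from granulosa cells. Of 11 theca and hedgehog genes 3 rose and 0 fell (median log2 change 0.09), and the 27.3% that rose was near the 29.9% of all members. Gli1, a hedgehog target and effector, was at 0.546, 0.797 and 1.02 RPKM in WT libraries, at 4.17, 3.16 and 4.82 in DKO, and at 3.11, 2.44 and 2.60 in DKO_TG (1.33 ± 0.18 against WT, SE, adjusted p = 0.000402 in limma). Nr2f2, a nuclear receptor of stroma, was at 6.94, 8.27 and 8.66 RPKM in WT and 12.4, 12.04 and 12.1 in DKO_TG (0.59 ± 0.12, adjusted p = 0.00406 in limma). Ptch1 was at 3.60, 4.29 and 4.75 RPKM in WT and 5.77, 5.68 and 5.92 in DKO_TG, which misses the test (0.42 ± 0.17, adjusted p = 0.0637 in limma). Cyp17a1, which makes androgens in theca cells, was at 956, 164 and 190.2 RPKM in WT libraries, at 95.1, 59.0 and 200.2 in DKO, and at 955, 689.9 and 612 in DKO_TG: WT replicate 1 was as high as the highest DKO_TG library and the other two WT libraries were far lower (1.25 ± 0.67, adjusted p = 0.147 in limma). The 3 that rose became 5 with array weights and 6 with TPM. Gli1 and Nr2f2 overlap annotated genes and are uncertain.

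Oocyte genes were higher: of 18, 12 rose and 0 fell, with a median log2 change of 1.09. The share higher was 66.7%, beside 29.9% of all members. Zp3, a protein of the egg coat, was at 4.16, 8.03 and 7.24 RPKM in WT libraries, at 17.4, 8.07 and 14.9 in DKO, and at 15.1, 11.3 and 15.5 in DKO_TG. Zp2, another, was at 2.31, 5.40 and 5.53 RPKM in WT libraries, at 15.6, 6.66 and 13.5 in DKO, and at 14.5, 9.94 and 13.1 in DKO_TG. Gdf9, a growth factor that oocytes send to granulosa cells, was at 3.15, 7.68 and 6.23 RPKM in WT libraries, at 16.4, 7.15 and 16.1 in DKO, and at 15.3, 10.8 and 16.0 in DKO_TG. Its partner Bmp15 was at 0.471, 1.77 and 0.947 RPKM in WT libraries, at 5.18, 0.942 and 5.19 in DKO, and at 4.86, 3.39 and 4.74 in DKO_TG. For each of these genes the DKO_TG libraries lay above all WT libraries, WT replicate 1 was the lowest, and DKO replicate 2 lay near WT. Log2 changes were 1.09 ± 0.31 for Zp3, 1.47 ± 0.37 for Zp2, 1.29 ± 0.37 for Gdf9 and 1.70 ± 0.52 for Bmp15 (SE, adjusted p = 0.0165, 0.00945, 0.0183 and 0.0234 in limma). Npm2, a nuclear chaperone of the egg, rose by 1.56 ± 0.28 (adjusted p = 0.00201), and Tle6, part of the complex under the egg membrane, by 0.85 ± 0.19 (0.00573 in limma). The sum over the list was 39.6 to 81.4 RPKM in WT, 73.7 to 168 in DKO and 116 to 158 in DKO_TG. The count of 12 became 4 without WT replicate 1 or DKO_TG replicate 1 or 3 and 7 with no filter. Zp3 and Gdf9 were not called without WT replicate 1 or DKO_TG replicate 1 or 3, nor Bmp15 without WT replicate 1 or 3 or DKO_TG replicate 1 or 3. Bmp15 was not called with quantile normalization, no filter and the length and GC correction. Npm2 overlaps an annotated gene and is uncertain.

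Vegfa rose and most endothelial genes did not. Vegfa, the growth factor that drives new vessels in the follicle wall, was at 11.5, 11.0 and 7.92 RPKM in WT libraries, at 44.2, 36.7 and 24.4 in DKO, and at 53.5, 42.6 and 56.7 in DKO_TG (log2 change against WT 2.28 ± 0.23 SE, adjusted p = 8.26e-05 in limma). Apln, a peptide of sprouting vessels, fell to 9.38, 9.76 and 7.61 RPKM from 28.1, 19.6 and 21.6 in WT (-1.32 ± 0.23, adjusted p = 0.00149 in limma). Angpt1 (0.10 ± 0.14, adjusted p = 0.572) and Angpt2 (0.03 ± 0.22, adjusted p = 0.919 in limma), ligands of the receptor Tie2, were not called, and the other 6 of 10 ligands and tone genes were not either. Of 20 endothelial genes 1 rose and 8 fell (median -0.39, of the other sign with TPM at 0.11). The share lower was 40%, beside 20.2% of all members. Eng, a co-receptor for TGF beta, was at 51.4, 46.7 and 39.3 RPKM in WT and 22.1, 24.5 and 21.6 in DKO_TG (-0.99 ± 0.14, adjusted p = 0.000507). Robo4 was at 6.16, 6.20 and 6.34 RPKM in WT and 3.98, 3.80 and 4.09 in DKO_TG (-0.59 ± 0.09, adjusted p = 0.000683 in limma). Pecam1, a junction protein, changed by -0.44 ± 0.13 (0.0201) and Kdr, the main VEGF receptor, by -0.46 ± 0.16 (0.0367), while Cdh5, the endothelial cadherin, was at -0.25 ± 0.18 and not called (0.274 in limma). Egfl7, a secreted endothelial protein, was the one that rose, at 5.66, 6.82 and 5.82 RPKM in WT and 23.7, 20.3 and 22.3 in DKO_TG (1.78 ± 0.18, adjusted p = 9.55e-05 in limma). The 8 that fell became 1 with TPM, 4 without WT replicate 2 or DKO_TG replicate 2 or 3, and with the plain total of reads and 5 without WT replicate 1. Pecam1 was not called without WT replicate 1 or 2 or DKO_TG replicate 2 or 3, nor Kdr without any 1 WT or DKO_TG library. Pecam1, Kdr and Robo4 were not called with TPM, nor Pecam1 or Kdr with quantile normalization and the plain total of reads. Kdr was not called with no filter. With TPM the direction of Pecam1 and Kdr turned. Called higher with TPM were 2 endothelial genes and 5 ligand and tone genes. Egfl7, Eng and Angpt1 overlap annotated genes and are uncertain.

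Collagen and matrix genes fell: of 20, 14 fell and 0 rose, with a median log2 change of -0.60. The share lower was 70%, beside 20.2% of all members and 45.9% of the bin with the highest level. Their summed level was 1953 to 2128 RPKM in WT, 1097 to 1455 in DKO and 981 to 1209 in DKO_TG. Against DKO, 1 of the 20 was called lower and 0 higher. Col6a2 was at 68.9, 70.1 and 78.8 RPKM in WT and 33.6, 28.3 and 27.9 in DKO_TG (-1.27 ± 0.11 SE, adjusted p = 3.29e-05). Col1a1, the main fibrillar chain, was at 79.7, 102 and 103 RPKM in WT and 50.2, 38.3 and 31.8 in DKO_TG (-1.25 ± 0.22, adjusted p = 0.0018 in limma). The basement membrane chains Col4a1 (-0.75 ± 0.14) and Col4a2 (-0.95 ± 0.13) and Col6a1 (-0.98 ± 0.11) were lower too, with adjusted p of 0.002, 0.000443 and 0.00018 in limma. Fn1, fibronectin, was at 13.5, 20.004 and 20.4 RPKM in WT and 15.6, 11.5 and 12.1 in DKO_TG and was not called (-0.43 ± 0.20, adjusted p = 0.105 in limma). Of 14 matrix proteases and inhibitors, 7 fell and 0 rose (median -0.58). The share lower was 50% here and 33.3% among the smooth muscle genes below. Plau, the urokinase activator of plasmin, was at 209, 228 and 204 RPKM in WT and 87.6, 75.5 and 87.3 in DKO_TG (-1.35 ± 0.15, adjusted p = 0.000158). Mmp2, a gelatinase, was at 129, 118 and 147 RPKM in WT and 53.2, 56.3 and 52.3 in DKO_TG (-1.27 ± 0.22, adjusted p = 0.00151 in limma). Of 12 smooth muscle genes, 4 fell (median -0.45, of the other sign with TPM at 0.06): Acta2 was at 241, 274 and 259 RPKM in WT and 141, 109.7 and 143 in DKO_TG (-0.98 ± 0.21, adjusted p = 0.00483). Des was at 6.45, 7.78 and 5.28 RPKM in WT and 3.07, 3.36 and 3.20 in DKO_TG (-0.90 ± 0.15, adjusted p = 0.00149 in limma). The 14 matrix genes became 5 with TPM, 6 with quantile normalization and 8 with the plain total of reads. The 7 proteases and inhibitors became 2 with TPM. Of that list 4 were higher with TPM and 2 with the 6 libraries alone and array weights. The 4 smooth muscle genes became 0 with TPM, 2 with the length and GC correction, 7 without DKO replicate 2, and with TMM, the median ratio and the 6 libraries alone and 10 with array weights. Acta2, Des and Col4a1 were not called with TPM, nor Acta2, Col4a1 or Col6a1 with quantile normalization. Col4a1, Col4a2, Fn1 and Des overlap annotated genes and are uncertain.

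Macrophage genes were low in DKO_TG relative to DKO, and some also relative to WT. Against WT 38.9% of the list fell and 5.6% rose, beside 20.2% and 29.9% of all members. Of 18 macrophage genes, 7 fell and 1 rose against WT (median log2 change -0.19, of the other sign with TPM at 0.22 and the plain total of reads at 0.02), and 10 fell and 0 rose against DKO (median -1.07), where 1.7% of members were called lower and 0.411% higher. Cx3cr1, a chemokine receptor, was at 4.51, 3.74 and 5.47 RPKM in WT libraries, at 4.23, 5.40 and 4.99 in DKO, and at 2.40, 2.13 and 2.26 in DKO_TG. Laptm5, a lysosomal protein of blood cells, was at 11.4, 9.85 and 14.6 RPKM in WT libraries, at 10.9, 22.5 and 15.0 in DKO, and at 5.32, 6.37 and 5.85 in DKO_TG. Their log2 changes against WT were -0.86 ± 0.14 and -0.96 ± 0.24 (SE, adjusted p = 0.000997 and 0.00946 in limma), and that of Fcgr3, an antibody receptor, was -0.91 ± 0.22 (0.00872). Csf1r, the receptor that keeps macrophages alive, was at 8.22, 7.96 and 11.3 RPKM in WT libraries, at 12.8, 13.6 and 10.2 in DKO, and at 6.95, 5.87 and 6.70 in DKO_TG (-0.45 ± 0.15 against WT, adjusted p = 0.0356 in limma). Adgre1, which encodes F4/80, was at 2.72, 2.40 and 3.35 RPKM in WT libraries, at 7.49, 12.6 and 6.71 in DKO, and at 3.11, 2.90 and 2.80 in DKO_TG: DKO_TG was within the WT range and below every DKO library (0.06 ± 0.21 against WT, adjusted p = 0.835; -1.40 ± 0.21 against DKO, adjusted p = 0.0176 in limma). Cd68 overlapped between WT and DKO_TG, at 9.05, 9.46 and 10.2 RPKM in WT and 7.17, 12.1 and 8.88 in DKO_TG (-0.06 ± 0.22, adjusted p = 0.848 in limma). The sum over the list was 266 to 359 RPKM in WT, 378 to 778 in DKO and 243 to 311 in DKO_TG. By DKO library it was 378, 778 and 532. Calls against DKO were fragile: over all members the 219 lower became at most 17 without any 1 DKO_TG library. They became 28 with the 6 libraries alone. How many macrophage genes remained among them was not counted. The 1 that rose against WT was Lyz2, the lysozyme of macrophages, by 0.73 on the log2 scale (adjusted p = 0.0266 in limma), named after its values were seen. That count became 0 without WT replicate 1 or 2 or DKO_TG replicate 2 or 3, and with no filter and the median ratio, and 3 with TPM. The 7 that fell became 1 with TPM, 3 without WT replicate 3 or DKO_TG replicate 2, and with the plain total of reads and 4 with the length and GC correction. Csf1r was not called without any 1 DKO_TG library or WT replicate 3. Csf1r, Fcgr3 and Laptm5 were not called with TPM, nor Csf1r with the plain total of reads, no filter and the length and GC correction. With TPM the direction of Csf1r turned. Csf1r and Cx3cr1 overlap annotated genes and are uncertain.

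Of 7 genes of MHC class II, through which antigen is presented, 1 fell against WT (14.3%, beside 20.2% of all members) and 5 against DKO (beside 1.7% of all members), with median log2 changes of -0.53 and -1.19. The 1 against WT became 0 with quantile normalization, TPM, the plain total of reads and voom, 2 without DKO replicate 3 and with array weights, 3 without WT replicate 2 and with TMM, and 4 with the median ratio. Of higher genes there was 1 with TPM and in several other settings. The 5 against DKO belong to the comparison in which most calls were lost without any 1 DKO_TG library. The one that fell against WT was Cd74, the invariant chain, at 127, 120.3 and 199.9 RPKM in WT libraries, at 204, 215 and 137 in DKO, and at 82.4, 61.0 and 86.5 in DKO_TG (-0.93 ± 0.25 SE, adjusted p = 0.0128 in limma). Of 18 genes of lymphocytes, granulocytes and mast cells, 5 reached the level of a member, and 2 of these rose, Ptprc among them. Ptprc, the pan-leukocyte antigen CD45, was at 0.268, 0.280 and 0.352 RPKM in WT libraries, at 1.97, 4.56 and 3.48 in DKO, and at 0.961, 0.813 and 0.906 in DKO_TG (0.80 ± 0.22 against WT, adjusted p = 0.0162 in limma). Of 17 interferon-stimulated genes 2 rose and 1 fell (median 0.10). These are 11.8% and 5.9%, beside 29.9% and 20.2% of all members. Stat2, which carries the interferon signal, was at 5.80, 5.82 and 5.74 RPKM in WT and 10.3, 7.87 and 9.27 in DKO_TG (0.61 ± 0.10, adjusted p = 0.00121), and Irf1 rose by 0.41 ± 0.13 (0.0261). Gbp2, a guanylate-binding protein, was at 16.5, 12.1 and 20.2 RPKM in WT and 11.0, 9.20 and 8.57 in DKO_TG (-0.71 ± 0.19, 0.0135 in limma). Irf7 (0.36 ± 0.26) and Isg15 (-0.57 ± 0.23) were not called (adjusted p = 0.268 and 0.0668 in limma). The 2 leukocyte genes became 0 with quantile normalization and 1 without DKO_TG replicate 1, and with a filter at an RPKM of 1 and the length and GC correction, and the 2 interferon genes 1 without WT replicate 2 or DKO_TG replicate 1 or 3, and with TMM, the median ratio, quantile normalization and voom, 4 with the plain total of reads, 5 without DKO_TG replicate 2, and with array weights and 9 with TPM. The 1 lower interferon gene became 0 without DKO_TG replicate 3 and with TPM and the plain total of reads, 2 without WT replicate 3 and with TMM, the median ratio and array weights, 3 with the length and GC correction, and 5 without DKO_TG replicate 1 and with quantile normalization. Ptprc was not called without DKO_TG replicate 1, nor Gbp2 without DKO_TG replicate 3. Ptprc is a member through its DKO_TG libraries alone. Irf1 was not called without WT replicate 1 or 2 or DKO_TG replicate 1 or 3. Cd74 and Gbp2 were not called with TPM and the plain total of reads, nor Cd74, Ptprc or Irf1 with quantile normalization. Ptprc was not called with the length and GC correction, nor Irf1 with TMM, voom and the median ratio. Cd74, Irf7, Gbp2 and Irf1 overlap annotated genes and are uncertain.

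Genes of DNA replication and the G1/S step fell in part, and few genes of mitosis were called. Of 21 replication genes 10 fell and 0 rose (median log2 change -0.44, of the other sign with TPM at 0.06), and of 20 mitosis genes 2 rose and 0 fell (median -0.01). The 47.6% of replication genes that fell stand beside 20.2% of all members, and the 10% of mitosis genes that rose beside 29.9%. The difference between the lists was not tested. With TPM 2 replication genes were called higher. Mcm6, a subunit of the replicative helicase, was at 22.8, 23.2 and 27.9 RPKM in WT libraries, at 6.24, 7.98 and 12.8 in DKO, and at 10.5, 9.34 and 10.3 in DKO_TG (-1.25 ± 0.22 against WT, SE, adjusted p = 0.0016 in limma). Ccnd1, cyclin D1, was at 14.6, 10.3 and 8.81 RPKM in WT and 4.16, 4.54 and 3.87 in DKO_TG (-1.30 ± 0.23, adjusted p = 0.00166). Mcm5 was at 18.7, 19.4 and 20.2 RPKM in WT and 10.9, 9.22 and 10.2 in DKO_TG (-0.91 ± 0.21, 0.00589). Mcm2 was at 8.46, 9.20 and 8.99 RPKM in WT and 6.98, 5.74 and 6.62 in DKO_TG (-0.44 ± 0.15, 0.0332 in limma). Pcna, the sliding clamp, was at 36.4, 36.6 and 41.1 RPKM in WT and 37.8, 37.7 and 35.9 in DKO_TG (-0.03 ± 0.17, adjusted p = 0.89). Ccnd2, the cyclin D of granulosa cells, was at 11.6, 17.6 and 18.4 RPKM in WT and 16.8, 12.7 and 13.9 in DKO_TG (-0.11 ± 0.24, 0.722 in limma), so both overlapped between the groups. Among mitosis genes Mki67 (-0.09 ± 0.24), Top2a (-0.10 ± 0.25) and Cdk1 (-0.01 ± 0.20) were not called (adjusted p = 0.763, 0.769 and 0.983 in limma). The spindle motors Kif11 and Kif23 rose by 0.79 ± 0.22 and 0.53 ± 0.17 (adjusted p = 0.0147 and 0.0293 in limma). The 10 that fell became 2 with TPM and 4 with the plain total of reads, and the 2 that rose 0 without WT replicate 1 or DKO_TG replicate 1, and with voom and the length and GC correction, 1 without WT replicate 2 or 3 or DKO_TG replicate 3, and with no filter, TMM, the median ratio and quantile normalization and 4 with TPM. Mcm2 was not called without any 1 WT library or DKO_TG replicate 2 or 3, nor Kif11 without WT replicate 1 or DKO_TG replicate 1. Kif23 was not called without any 1 WT library or DKO_TG replicate 1 or 3. Mcm2 and Mcm5 were not called with TPM, nor Kif23 with quantile normalization, TMM, voom and the median ratio. Mcm2 was not called with the plain total of reads, nor Mcm2 or Kif23 with no filter. Mcm2, Kif11 and Kif23 were not called with the length and GC correction. With TPM the direction of Mcm2 turned. Top2a, Ccnd1 and Ccnd2 overlap annotated genes and are uncertain.

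Apoptosis genes, active when follicles die, went both ways: of 17, 3 rose and 4 fell (median log2 change 0.00), 17.6% and 23.5% beside 29.9% and 20.2% of all members. Xiap, a caspase inhibitor, was at 6.15, 7.62 and 7.95 RPKM in WT and 14.0, 14.2 and 13.3 in DKO_TG (0.90 ± 0.12 SE, adjusted p = 0.000471). Bak1, which opens the mitochondrial membrane, was at 22.5, 18.7 and 19.6 RPKM in WT and 11.7, 10.7 and 10.9 in DKO_TG (-0.84 ± 0.13, 0.000894 in limma). Apaf1, the scaffold of the apoptosome, rose by 0.49 ± 0.13 (0.0144), and Bcl2 (0.14 ± 0.11), Bax (-0.32 ± 0.14) and Bcl2l11 (0.29 ± 0.11) were not called (adjusted p = 0.33, 0.075 and 0.0611 in limma). Of 13 immediate-early genes 3 rose and 2 fell (23.1% and 15.4%), under the shares of all members. Egr1 was at 10.5, 11.8 and 10.004 RPKM in WT and 4.74, 6.96 and 6.36 in DKO_TG (-0.80 ± 0.14, adjusted p = 0.00173 in limma). Fos was at 0.919, 1.39 and 1.10 RPKM in WT and 1.80, 1.85 and 1.85 in DKO_TG (0.52 ± 0.19, 0.0493 in limma). The 4 apoptosis genes that fell became 1 with TPM and the plain total of reads, 2 without DKO_TG replicate 2, 7 with voom and 8 with TMM and the median ratio and the 3 that rose 5 with array weights, 6 with the plain total of reads and 9 with TPM. For immediate-early genes the 3 that rose became 0 with quantile normalization, 1 without WT replicate 1 or DKO_TG replicate 2, and with no filter, the median ratio and voom and 6 with TPM and the 2 that fell 0 with TPM and 1 without any 1 DKO_TG library or WT replicate 2, and with no filter and the plain total of reads. Apaf1 was not called without DKO_TG replicate 1, nor Fos without any 1 DKO_TG library, WT replicate 1 or 3 or DKO replicate 3. Egr1 was not called with TPM, nor Apaf1 or Fos with quantile normalization. Fos was not called with no filter, TMM, voom, the median ratio and a pseudocount of 1. Bcl2, Bax and Bak1 overlap annotated genes and are uncertain.

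Metabolic and stress lists held more lower than higher genes on the deposited scale, apart from the IGF axis. The share lower was 50% for glycolysis, 45% for antioxidants, 46.2% for heat shock, 31.25% for ATF4 and 30% for prostaglandins. Over all members it was 20.2%, and in the bin with the highest level 45.9%. The IGF axis had 25% higher and 25% lower, near the 29.9% and 20.2% of all members. Of 18 glycolysis and hypoxia genes 1 rose and 9 fell (median log2 change -0.57). Hk1, a hexokinase, was at 14.7, 12.2 and 12.9 RPKM in WT and 7.53, 6.30 and 6.68 in DKO_TG (-0.91 ± 0.10 SE, adjusted p = 0.000116). Ldha, lactate dehydrogenase, was at 143, 126 and 143 RPKM in WT and 76.1, 70.8 and 80.0 in DKO_TG (-0.86 ± 0.16, 0.00212 in limma). Of 20 antioxidant genes 1 rose and 9 fell (median -0.44, of the other sign with TPM at 0.06). Gpx1, a glutathione peroxidase, was at 255, 331 and 244 RPKM in WT and 107, 143 and 136 in DKO_TG (-1.10 ± 0.28, adjusted p = 0.00983). Gclc, which starts glutathione synthesis, was the one that rose, at 15.3, 14.7 and 16.1 RPKM in WT and 30.02, 27.2 and 26.7 in DKO_TG (0.84 ± 0.16, 0.00281 in limma). Of 13 heat shock genes 0 rose and 6 fell (median -0.35, of the other sign with quantile normalization at 0.04 and TPM at 0.17), with Hspa8 at 666, 602 and 728 RPKM in WT and 320.4, 339 and 346 in DKO_TG (-0.98 ± 0.18, adjusted p = 0.00208). Bag3, its partner, was at 23.0, 24.9 and 25.2 RPKM in WT and 13.2, 15.8 and 13.2 in DKO_TG (-0.78 ± 0.13, 0.00154 in limma). Of 16 genes of ATF4 and ER stress 2 rose and 5 fell (median -0.07). Those that rose were the factors Ddit3, at 5.44, 5.17 and 5.91 RPKM in WT and 14.6, 13.3 and 13.0 in DKO_TG (1.23 ± 0.11, adjusted p = 3.65e-05), and Atf4, at 79.8, 49.6 and 52.1 RPKM in WT and 98.9, 98.6 and 94.0 in DKO_TG (0.71 ± 0.20, 0.0177 in limma). Of 12 genes of the IGF axis 3 rose and 3 fell (median 0.15), with Insr, the insulin receptor, at 7.45, 7.30 and 7.85 RPKM in WT and 12.1, 11.4 and 11.9 in DKO_TG (0.61 ± 0.07, adjusted p = 0.000207) and Igf1 not called (0.16 ± 0.22, 0.567 in limma). Of 10 prostaglandin genes 0 rose and 3 fell (median -0.24, of the other sign with TPM at 0.21), with Ptgis, the prostacyclin synthase, at 27.8, 22.3 and 21.7 RPKM in WT and 12.2, 11.0 and 12.5 in DKO_TG (-0.97 ± 0.11, adjusted p = 0.00015) and Ptgs1 not called (-0.20 ± 0.14, 0.276 in limma). Counts of lower genes became 5 with TPM for glycolysis, 0 with TPM, 1 with quantile normalization, 4 without WT replicate 1 or DKO_TG replicate 1, and with the plain total of reads and 5 without DKO_TG replicate 3 for antioxidants, 1 with TPM and 2 with quantile normalization for heat shock, 0 with quantile normalization and TPM, 1 with the plain total of reads, 2 without WT replicate 3 or DKO_TG replicate 1 or 3, and with no filter and 3 without DKO_TG replicate 2 for ATF4, 1 without WT replicate 1 or DKO_TG replicate 3, and with no filter, TPM and the plain total of reads for IGF and 1 with TPM and the plain total of reads for prostaglandins. Those of higher genes became 5 with TPM and 3 with the plain total of reads for glycolysis, 4 with TPM for antioxidants, 3 with TPM and quantile normalization for heat shock, and 3 with TPM for prostaglandins. They became 1 without WT replicate 2 or 3 or DKO_TG replicate 1 and 7 with TPM for ATF4 and 1 without WT replicate 3 or DKO_TG replicate 1 or 3 and 8 with TPM for IGF. Atf4 was not called without WT replicate 2 or 3 or DKO_TG replicate 1. Ldha, Bag3 and Gpx1 were not called with TPM, nor Ldha, Hspa8 or Gpx1 with quantile normalization. Hk1, Ddit3, Hspa8, Ptgs1 and Ptgis overlap annotated genes and are uncertain.

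Lists of markers of cells beside or around the follicle, and of histone genes, differed in part. Of 9 genes of the ovarian surface epithelium 5 fell and 0 rose (median log2 change -0.61), and their sum was 31.1 to 66.3 RPKM in WT and 13.0 to 24.01 in DKO_TG. The share lower was 55.6%, beside 20.2% of all members. Of the lists below, 60% of erythrocyte, 33.3% of adipocyte and 20% of neuronal genes were lower. Higher were 33.3% of oviduct, 20% of neuronal and 2.5% of histone genes, beside 29.9% of all members. Krt19, a keratin, was at 11.1, 4.31 and 8.44 RPKM in WT libraries, at 4.63, 4.73 and 6.997 in DKO, and at 2.32, 2.66 and 1.27 in DKO_TG (-1.66 ± 0.34 against WT, SE, adjusted p = 0.00351). Krt18 was not called (-0.47 ± 0.29, 0.207 in limma). The summed level of globins, carried by red blood cells, ranged from 359 to 1655 RPKM in WT and 197 to 284 in DKO_TG. Of 5 erythrocyte genes 3 fell. Hba-a1 was at 253, 365 and 78.3 RPKM in WT and 57.6, 42.1 and 53.5 in DKO_TG (-1.92 ± 0.62, adjusted p = 0.029). Hbb-bs was at 325, 496 and 97.6 RPKM in WT and 87.8, 59.0 and 84.5 in DKO_TG (-1.72 ± 0.67, 0.0593 in limma). Of 3 adipocyte genes 1 fell, Car3 at 5.17, 1.54 and 2.37 RPKM in WT and 0.358, 0.892 and 0.925 in DKO_TG (-1.43 ± 0.45, adjusted p = 0.0258), Fabp4 was not called (-0.31 ± 0.27, 0.359 in limma), and the defining gene Adipoq did not reach the level of a member. Of 3 oviduct genes 1 rose, Ovgp1, the oviductal glycoprotein, at 0.0184, 0.232 and 0.151 RPKM in WT and 1.04, 0.596 and 0.654 in DKO_TG (0.99 ± 0.20, adjusted p = 0.00352 in limma). Of 15 neuronal genes 5 were members, with 1 higher and 1 lower: Tubb3 was at 42.0, 19.9 and 23.1 RPKM in WT libraries, at 5.63, 6.50 and 8.63 in DKO, and at 19.4, 17.4 and 17.0 in DKO_TG and not called against WT (-0.57 ± 0.26, adjusted p = 0.0921). Syt1, a synaptic vesicle protein, fell to 0.261, 0.304 and 0.236 RPKM from 0.618, 0.649 and 0.601 (-0.55 ± 0.11, 0.00288 in limma). Of 40 replication-dependent histone genes 1 rose, Hist2h4 at 0.0268, 0.0137 and 0.0635 RPKM in WT and 0.704, 0.858 and 0.727 in DKO_TG (1.24 ± 0.21, adjusted p = 0.00158 in limma). The part of these cells in the results above was not tested. The 5 epithelial genes became 2 without WT replicate 1 and 3 with TPM, and the 3 erythrocyte genes 0 without any 1 DKO_TG library or WT replicate 1 or 2, and with no filter, TPM and the length and GC correction, 1 with quantile normalization and 5 without DKO replicate 1, and with the median ratio, the 6 libraries alone and array weights. Hba-a1 was not called without any 1 DKO_TG library or WT replicate 1 or 2, nor Car3 without WT replicate 1 or DKO_TG replicate 1. Hba-a1, Car3 and Syt1 were not called with TPM, nor Hba-a1, Ovgp1 or Hist2h4 with quantile normalization. Hba-a1 and Car3 were not called with no filter, nor Hba-a1 with the length and GC correction. Globins and histones have near-identical copies and Ovgp1 overlaps an annotated gene, so these are uncertain. Ovgp1 and Hist2h4 are members through their DKO_TG libraries alone, and Syt1 through its WT libraries alone.

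**Figure D5:**
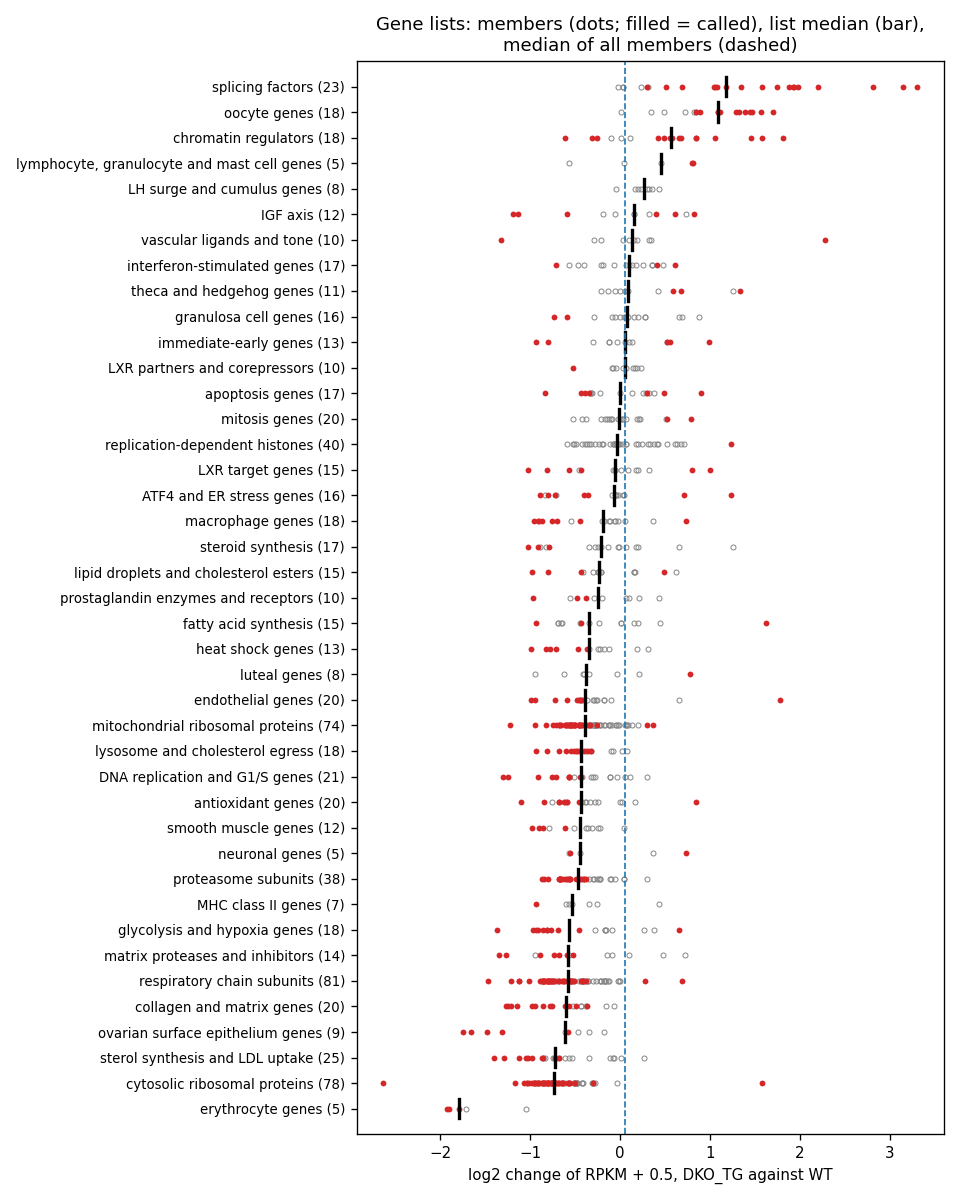
Log2 change in DKO_TG against WT of each member (dots, filled where called) in the gene lists with at least 5 members, with a black bar at the list median and a dashed line at the median of all members (0.06). Splicing factors and oocyte genes have the highest medians, 1.18 and 1.09, and erythrocyte and cytosolic ribosomal genes the lowest, -1.79 and -0.74.

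To see where these ovaries differ from the knockout without transgene, the members were also compared with DKO, a comparison that shares the DKO_TG libraries with the one above. Of 12901 members 53 were higher (0.411%) and 219 lower (1.7%) than in DKO, 2.11% in all, beside 2.23% of all genes tested. The median log2 change was 0.03. Of members lower than in both other groups, Cav1, Cav2, Ccl8, C3 and C1qc had the 5 largest differences from DKO. Ccl8, a chemokine, was at 6.79, 5.82 and 9.32 RPKM in WT libraries, at 7.61, 16.5 and 16.1 in DKO, and at 2.01, 1.51 and 1.18 in DKO_TG (-1.91 ± 0.30 against WT and -2.69 ± 0.30 against DKO, SE, adjusted p = 0.000918 and 0.00702 in limma). C3, the central complement protein, was at 14.9, 10.5 and 15.6 RPKM in WT libraries, at 9.90, 23.7 and 32.5 in DKO, and at 2.89, 6.76 and 3.15 in DKO_TG (-1.64 ± 0.43 and -2.18 ± 0.43, adjusted p = 0.012 and 0.0434). C1qc, a chain of complement C1q, was at 20.4, 17.7 and 20.1 RPKM in WT libraries, at 25.9, 56.6 and 39.8 in DKO, and at 11.1, 11.4 and 11.2 in DKO_TG (-0.76 ± 0.23 and -1.74 ± 0.23, 0.0231 and 0.0143 in limma). For each of these 3 genes every DKO_TG library was below every library of the other groups. Of those highest against DKO, Sorl1, a sorting receptor, was at 1.24, 1.72 and 1.44 RPKM in WT libraries, at 1.59, 1.67 and 1.33 in DKO, and at 5.56, 3.61 and 4.05 in DKO_TG (1.31 ± 0.16 against WT and 1.26 ± 0.16 against DKO, adjusted p = 0.000246 and 0.0127 in limma). Syne4, a nuclear membrane protein, was at 1.37, 1.51 and 0.871 RPKM in WT libraries, at 3.99, 2.58 and 3.57 in DKO, and at 7.05, 9.05 and 8.80 in DKO_TG (2.34 ± 0.19 and 1.19 ± 0.19, adjusted p = 2.38e-05 and 0.0208 in limma). Lrrn3, a membrane protein with leucine-rich repeats, was at 10.1, 9.17 and 7.19 RPKM in WT libraries, at 1.02, 0.885 and 0.637 in DKO, and at 4.09, 4.40 and 4.53 in DKO_TG, lower than WT (-0.93 ± 0.14, 0.000901) and higher than DKO (1.86 ± 0.14, 0.00116 in limma). Slc16a11, a monocarboxylate transporter, and Dsc2, a desmosomal cadherin, were above both groups, by 0.74 ± 0.24 and 0.81 ± 0.20 against WT and 1.24 ± 0.24 and 1.10 ± 0.20 against DKO (adjusted p = 0.0291, 0.00928, 0.0414 and 0.0343 in limma). Against WT, C1qc was not called without any 1 DKO_TG library or WT replicate 1 or 3, nor Slc16a11 without any 1 DKO_TG library or WT replicate 1 or 2. Against DKO, C3 was not called without any 1 WT or DKO_TG library or DKO replicate 2 or 3, nor C1qc without any 1 DKO_TG library. Sorl1 was not called without DKO_TG replicate 3, nor Slc16a11 without any 1 DKO_TG library, WT replicate 1 or DKO replicate 2 or 3. Syne4 was not called without any 1 DKO_TG library or DKO replicate 3, nor Dsc2 without any 1 DKO_TG library, WT replicate 3 or DKO replicate 3. C3, Slc16a11 and Dsc2 were not called with no filter, nor C3 with the length and GC correction. C3, C1qc, Slc16a11, Syne4 and Dsc2 were not called with the 6 libraries alone, nor Slc16a11 with array weights. Against WT, C1qc was not called with TPM and the plain total of reads, nor Slc16a11 or Dsc2 with quantile normalization. Slc16a11 was not called with no filter, nor C1qc or Dsc2 with the length and GC correction. Without any 1 DKO_TG library the counts against DKO were at most 2 higher and 17 lower, against 53 and 219 with all 3. Sorl1 overlaps an annotated gene and is uncertain.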

How the data were processed

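RNA of 9 mouse ovary samples (3 WT, 3 DKO, 3 DKO_TG) was sequenced, and the authors deposited 1 table of RPKM values. Its columns were matched to samples by group name, and those of the transgene group are spelled TG-AMBb where the labels write TG-AMHb. The submitters' processing notes name cutadapt, HISAT2 2.1.0, HTSeq 0.5.4p5, DESeq2 1.2.8 and mm10. How RPKM was computed, on which annotation and with which strand setting is not given in the sources used here, so reads of overlapping or antisense genes cannot be told apart.

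Of 54838 genes, 54809 matched GENCODE M21, which gave gene type, exon length and GC content. With these lengths, 97.8% of values above 0 were whole reads (tolerance 0.01 read, or 1e-06 of the value), 40.1 to 59.4 M a library. The library size behind the RPKM values was 0.793 to 0.920 of those reads in WT and 1.03 to 1.11 in the other groups, so the deposited scaling is not by plain totals. Genes with at least 0.5 RPKM in at least 3 of 9 libraries were tested with limma 3.58.1 in R 4.3.3 on log2(RPKM + 0.5), with all 9 libraries in 1 fit, no covariates, and two-sided Benjamini-Hochberg adjusted p. Fold changes on this scale understate changes of genes near 0.5 RPKM. On simulated data for DKO_TG against WT (18503 genes), 69% of the 100 genes given a 2-fold change were called. Of the 100 given a 4-fold change 95% were called, as were 5 of 18303 unchanged genes. Only the 2-fold and 4-fold genes were changed. No error of scaling between groups was simulated, so these rates need not hold for the deposited values. In the deposited values 51.4% of the genes tested were called, and how many of those calls are false was not tested.

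The members and gene lists were chosen with earlier results of these data known. Genes named are the targeted genes, the 10 largest called changes each way (mean of at least 1 RPKM, no overlap between groups, no clone-based symbol), the 10 most abundant members, the 5 largest each way that also differ from DKO, and for each list its first 1 or 3 genes as written plus the 1 or 3 called members of smallest adjusted p. Some genes this rule names are not reported here. Other names were chosen after values were seen. A gene is called uncertain where any of its exon bases overlap another annotated gene, as in 35.0% of members. Promoters are from RefSeq (GRCm38.p6). Alternatives covered scaling, pseudocount, filter, length and GC, array weights, replicate block, thresholds and leaving out libraries. No more than the number is known to link same-numbered WT and DKO_TG libraries.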

Additional observations from a re-analysis of the deposited data

How the results depend on the processing

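Against WT, the counts of 3862 higher and 2604 lower members stayed within 1.5 times under most alternatives. With TPM they were 7386 and 404, and 1214 were lower with the plain total of reads. A log2 change of at least 1 was reached by 977 higher and 214 lower, and 1462 were lower at an adjusted p under 0.01. Without 1 library they ranged from 3146 to 4058 higher and from 1818 to 2751 lower. Against DKO, the 53 higher and 219 lower members became 19 and 75 without the filter, 85 and 331 with quantile normalization, and 10 and 28 with the 6 libraries alone. They were 14 and 98 at a log2 change of at least 1, and 1 and 14 at an adjusted p under 0.01. Without 1 library they ranged from 1 to 70 higher and from 14 to 267 lower, and were lowest without any 1 of the DKO_TG libraries. The cause was not tested.

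With the replicate number as a block, 3604 members were higher and 2246 lower than WT, and 6 and 44 than DKO. With the block and the length and GC correction, 3134 and 2355 were called against WT, and 8 and 45 against DKO. Same-numbered libraries of WT and DKO_TG correlated at 0.095, 0.020 and -0.088 in their deviations from the group means. For DKO and DKO_TG the values were -0.334, 0.197 and -0.0045. Such values from 3 libraries a group cannot tell whether same-numbered libraries share a batch.

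Log2 changes against WT took the other sign with TPM for Capza2 (0.14), Cavin1 (0.29), Cavin2 (0.46), Csf1r (0.047), Fasn (0.092), Hsd3b1 (0.40), Kdr (0.05), Lipa (0.047), Mcm2 (0.059), Npc1 (0.11), Pcna (0.49), Pecam1 (0.076), Plin2 (0.086) and Ubb (0.064). They did so with quantile normalization for Cavin1 (0.30), Ctsb (0.044), Rplp1 (0.061), Rps3a1 (0.075) and Ubb (0.30), and with the block and the length and GC correction for Angpt1 (-0.36). At least 32 of the named genes called against WT lost the call on leaving out 1 library. All changes rest on 3 libraries a group, and levels near 0.5 RPKM on few reads.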
